A study of Mus musculus with 16 samples.

Results

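The lungs of male mice that had spent gestation in smoke were compared with those of males from filtered air, 8 arrays of the 16 in the series and 4 in each group. All 45037 probe sets other than the control probe sets were tested. Each of 18193 genes was read from the probe set with the highest mean over the 16 arrays among its probe sets with 1 symbol. The 4 males labelled EM had been exposed in utero to sidestream smoke, the stand-in for second-hand smoke (SHS), at a particle load of 10 mg/m3, 5 h a day and 7 days a week. The 4 males labelled AM had been exposed in utero to filtered air under the same schedule. Both groups were of the inbred strain Balb/c. Both were injected with ovalbumin (OVA), the egg white protein used as an allergen, at 19 and 21 weeks and breathed it as an aerosol in weeks 22 and 23, and left lungs were taken at 23 weeks. The contrast therefore asked how an allergen-challenged adult male lung differed with smoke before birth, and no lung without OVA was measured. The other 8 arrays held females of both exposures. Each array held the lung of a separate animal. Litters and mothers are not given in the sources used here.

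Allergic inflammation of the mouse lung is known for T helper cytokines of type 2, chiefly IL-4, IL-5 and IL-13, which recruit eosinophils, drive mucus secretion and turn macrophages to an arginase-rich state. Neutrophils are drawn by another set of signals, the CXC chemokines that bind the receptor CXCR2, whose genes lie side by side and are induced through NF-kB. Dividing cells carry a common set of transcripts, the S-phase genes driven by E2F factors and the mitotic genes repressed and activated in turn by the DREAM and MuvB complexes.

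The labelled tissue showed in the markers of lung epithelium. Sftpc of type 2 alveolar cells read a mean log2 intensity of 15.1 in both groups, Scgb1a1 of club cells 15.2 and Ager of type 1 alveolar cells 14.5. Correlations over all probe sets were 0.995 to 0.996 among the air males, 0.995 to 0.998 among the SHS males and 0.992 to 0.995 between the groups. Of 11 checks on hybridization controls and on the 3' against 5' signal of Gapdh and Actb, the lowest two-sided exact permutation p was 0.143 (adjusted p = 0.8), where the smallest possible with 4 against 4 arrays is 0.0286. SHS male 4 stood apart in the markers of eosinophils. Their median deviation from the air mean was -0.52 there and 0.19 to 0.37 in the other SHS males. Counts that follow are given without that array where it moves them by over 1.5 times.

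Smoke in utero went with 1382 higher and 950 lower probe sets of 45037 in limma at a Benjamini-Hochberg adjusted p under 0.05, which is 3.07% and 2.11% of those tested and 5.18% together. Among genes, 758 of 18193 were higher (4.17%) and 449 lower (2.47%), while the median log2 difference over all genes was 0.01. The larger changes were mostly increases, with 51 genes at least 2-fold higher and 7 at least 2-fold lower. At an unadjusted p under 0.05, limma gave 9096 of the 45037 probe sets, a rough background for later counts at that threshold. Those counts are of genes, each read from its brightest probe set, so this share may be too low for them. At an adjusted p under 0.05, 6.63% of genes were called against 5.18% of probe sets. Calls were made more often among bright probe sets, and reached 8.83% of the 11259 brightest. The number of called probe sets depended on single lungs. It was 1282 without air male 1, 1178 without air male 3, 1220 without SHS male 1, 1370 without SHS male 2 and 1073 without SHS male 3, against 2332 with all 8. In what follows a difference is the log2 intensity in SHS males minus that in air males, with its standard error in the model (n = 4 and 4) and the limma adjusted p over all probe sets. Intensities of different genes are not set against each other, since probe sets differ in brightness.

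**Figure D1:**
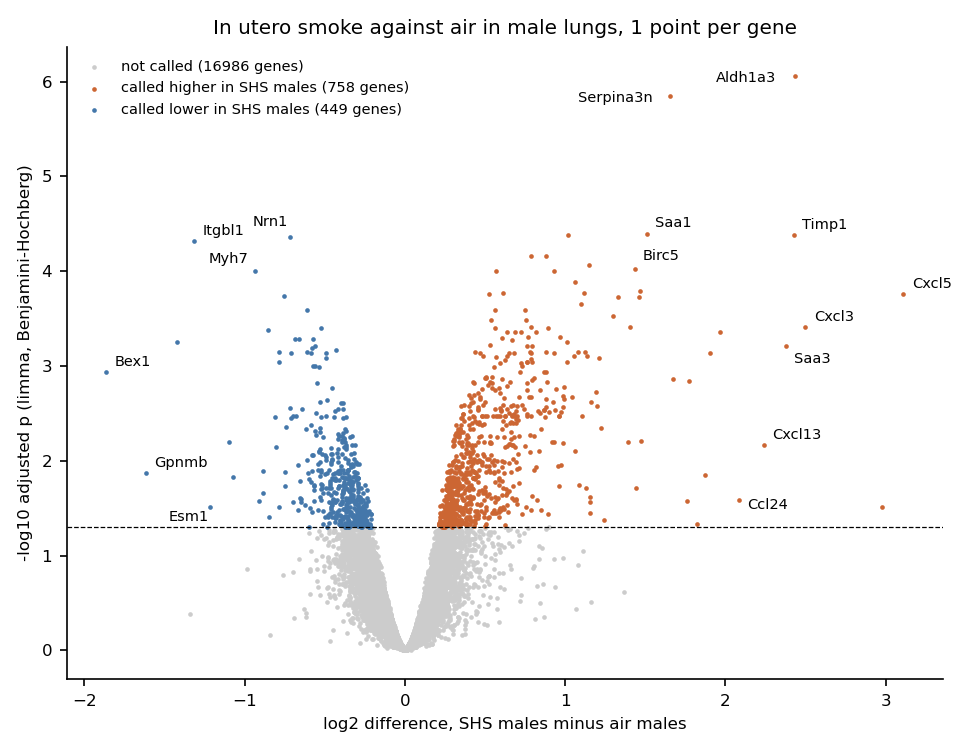
Each point is 1 of 18193 genes, with the log2 difference between SHS males and air males on the x axis and -log10 of the limma adjusted p on the y axis. The dashed line marks an adjusted p of 0.05, orange points are the 758 genes called higher and blue points the 449 called lower, and the largest differences lie to the right, led by Cxcl5 at 3.11.

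The neutrophil-attracting chemokines showed the largest change of any group of genes examined. In the list of CXCR2 ligands and receptor, 6 of 8 measured members were called higher and none lower, with a median difference of 1.08. The list also held the platelet chemokine Pf4, which is among the 6. Cxcl5 (chromosome 5, 90759298 to 90761625), an epithelial ligand of CXCR2, had the largest difference of all genes in the naming rule. It read 7.25, 7.48, 5.76 and 6.72 in the air males and 9.60, 9.55, 10.10 and 10.40 in the SHS males. Every SHS lung lay at least 2 log2 units above the highest air lung. The fold was 8.64, a difference of 3.11 ± 0.36 (adjusted p = 0.000175). Cxcl3 (chromosome 5, 90786101 to 90788093), a close relative, read 6.96, 7.30, 5.31 and 6.24 after air and 8.61, 8.67, 9.11 and 9.41 after SHS. The groups did not overlap, and air male 3 was the lowest lung for both genes. The rise in Cxcl3 was 5.66-fold (2.50 ± 0.32, adjusted p = 0.000392).

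Cxcl2 (chromosome 5, 90903899 to 90905938) read 5.55, 6.25, 5.68 and 6.36 in air males and 7.32, 7.09, 7.82 and 8.70 in SHS males, a 3.41-fold rise (1.77 ± 0.28, adjusted p = 0.00144). Cxcl1 (chromosome 5, 90891245 to 90893121) read 8.10, 8.44, 7.81 and 8.23 against 9.12, 9.07, 9.67 and 10.61, a 2.78-fold rise (1.47 ± 0.29, adjusted p = 0.00615). For both genes the groups were apart and SHS male 4 was the highest lung. The 4 ligand genes are neighbours on chromosome 5. Cxcr2, the receptor itself, rose by 0.59 ± 0.13 (adjusted p = 0.0161), a call that was lost without air male 3 (adjusted p = 0.057). Pf4, a platelet chemokine in the same family, rose by 0.69 ± 0.12 (adjusted p = 0.00302). The listed markers of neutrophils moved less than the ligands. Of 14 measured, 2 were called higher, namely Cxcr2 and the decoy receptor Il1r2 at 1.08, and the calprotectin genes S100a8 and S100a9 had differences of 0.32 (adjusted p = 0.509) and 0.38 (adjusted p = 0.412). The mean level of the neutrophil list was 7.25 to 7.41 in the air males and 7.60 to 7.69 in the SHS males. Of its 14 members 7 were dim, with both group means at or below the median of all probe-set means. Cd177, a neutrophil surface protein that was not on the list, was among the 30 largest rises. Its difference was 1.23 to 1.56 in fits that each left out 1 array, and it passed in 6 of the 8. In whole lung, more cells of a type and more RNA per cell cannot be told apart.

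The promoters of these chemokines are shown for the letters they share. Windows of 150 bases before the start site were taken from RefSeq on GRCm38.p6, all on the plus strand, for Cxcl1 (chr5:90891095-90891244), Cxcl2 (chr5:90903749-90903898), Cxcl3 (chr5:90785951-90786100) and Il6 (chr5:30012964-30013113), the cytokine gene described next. Capitals mark matches on either strand to the NF-kB motif, searched as GGGNN followed by TTTCC or by ATTCC, and matches that overlap run together.
Cxcl1: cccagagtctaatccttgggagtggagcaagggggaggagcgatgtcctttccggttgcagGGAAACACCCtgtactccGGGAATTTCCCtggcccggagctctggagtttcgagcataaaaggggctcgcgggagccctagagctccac
Cxcl2: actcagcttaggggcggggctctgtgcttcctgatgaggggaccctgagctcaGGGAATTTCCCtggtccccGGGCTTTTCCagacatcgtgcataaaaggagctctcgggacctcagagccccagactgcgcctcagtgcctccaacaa
Cxcl3: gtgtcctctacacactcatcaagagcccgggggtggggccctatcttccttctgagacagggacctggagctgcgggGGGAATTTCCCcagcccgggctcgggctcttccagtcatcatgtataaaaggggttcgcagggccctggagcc
Il6: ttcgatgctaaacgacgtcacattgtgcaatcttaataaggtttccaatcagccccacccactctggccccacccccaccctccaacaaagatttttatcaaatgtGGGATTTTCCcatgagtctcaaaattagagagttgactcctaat
Cxcl1 and Cxcl2 held 2 marked stretches each and Cxcl3 and Il6 held 1 each, all between 44 and 97 bases before the start. In the longer window of 250 bases before to 50 after the start, 2.65% of 14452 measured genes with such a window held a match. Of the 5 called genes of the CXCR2 list with a window, 3 held a match and Pf4 and Cxcr2 did not. Among the 30 genes named for the largest rise, 6 of 22 with a window did, and 1 of 20 among the 30 named for the largest fall. The 6 include Cxcl1, Cxcl2, Cxcl3 and Il6, printed above, so this count is not separate from the one before it. In 2 lists described below, matches were few. Of called acute-phase and antimicrobial genes, 1 of 7 with a window held a match, and of called IL-13 and IL-4 targets 0 of 13. A match is a description of the letters and not a measured binding site. Cxcl5 was among the genes without a window.

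**Figure D2:**
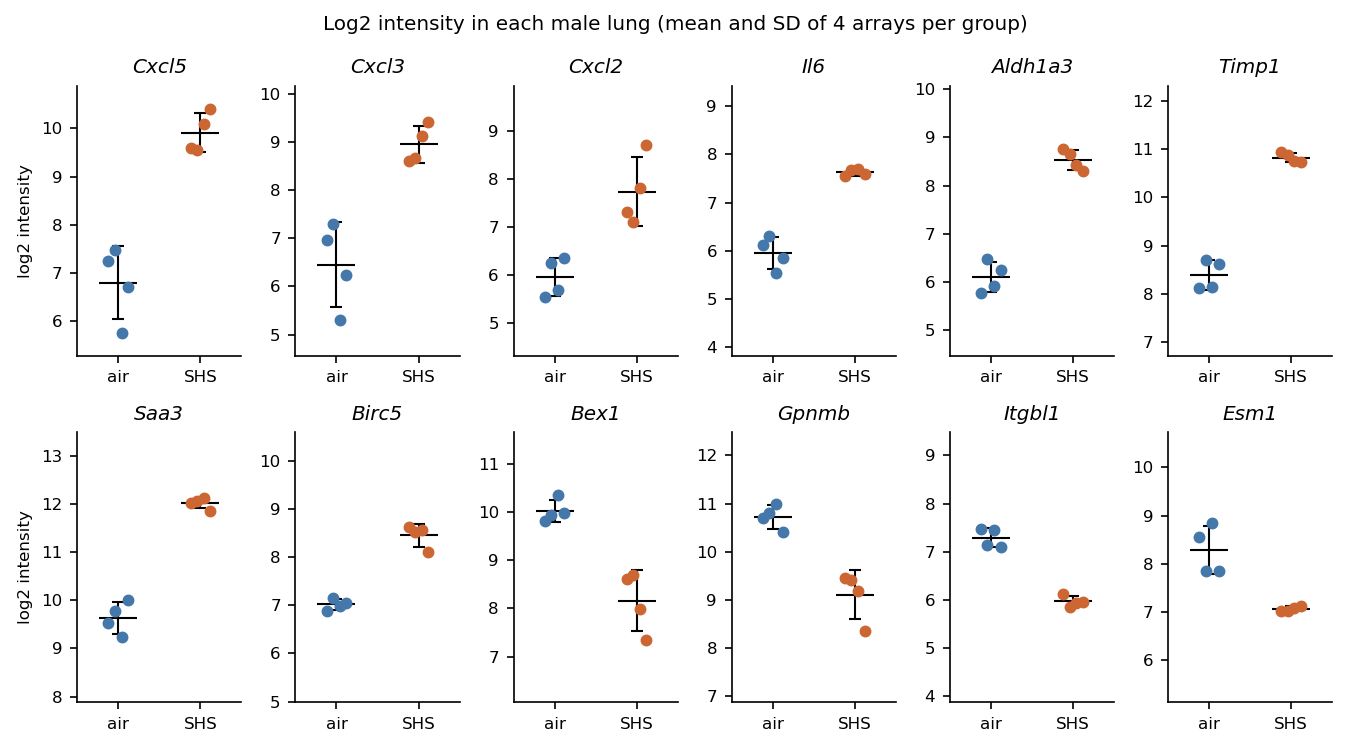
Log2 intensity of 12 genes in each of the 8 male lungs (points), with the mean and SD of the 4 arrays per group (black bars), on axes of equal height. The 8 genes from Cxcl5 to Birc5 are higher after SHS and the 4 from Bex1 to Esm1 lower, and no gene shown has overlapping groups.

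Chemokines of the CC family, which attract monocytes, eosinophils and T cells, rose in part. Of 18 measured, 8 were called higher and none lower (median 0.61). The count was 4 without air male 1, 5 without SHS male 1 and 4 without SHS male 3. Ccl7, a monocyte chemokine, read 6.63, 6.99, 6.35 and 6.58 in air males and 7.98, 8.14, 8.33 and 7.95 in SHS males. The SHS lungs were all above the air lungs and close together, and the rise was 2.76-fold (1.46 ± 0.17, adjusted p = 0.000189). Ccl2, which acts on the same receptor, rose by 1.06 ± 0.21 (adjusted p = 0.00793). The eosinophil chemokines were less stable. Ccl24 read 7.93, 8.57, 7.79 and 8.63 against 10.85, 10.71, 10.49 and 9.22, with SHS male 4 nearest to the air lungs. Its difference of 2.09 ± 0.52 (adjusted p = 0.0261) passed in 3 of 8 fits that each left out 1 array, with the highest adjusted p, 0.0816, without SHS male 1. Ccl11 rose by 0.82 ± 0.20 (adjusted p = 0.026) and also passed in 3 of the 8, with the highest adjusted p, 0.0861, without air male 1.

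Cues that organise lymphoid tissue include the B cell chemokine Cxcl13 and the oxysterol pathway, in which Ch25h makes 25-hydroxycholesterol and Cyp7b1 turns it into a ligand that guides B cells. Of 14 such genes, 4 were called higher and none lower, and the count stayed at 4 with each array left out. Ch25h read 9.05, 9.38, 8.86 and 9.05 in the air males and 10.59, 10.54, 10.54 and 10.53 in the SHS males. The SHS lungs differed from each other by less than 0.1 and all lay above the air lungs. The rise was 2.76-fold (1.47 ± 0.17, adjusted p = 0.000164), and Cyp7b1 rose by 0.79 ± 0.12 (adjusted p = 0.000904). Cxcl13 rose 4.73-fold (adjusted p = 0.00681), from 7.39 to 8.69 in the air males to 9.94 to 10.31 in the SHS males. Tnfsf13b, the B cell survival factor BAFF, was the remaining one at 0.59. Over B cell markers, 1 of 15 was called higher, Fcer2a, the low-affinity IgE receptor, a call that held in 2 of the 8 fits with an array left out. Plasma cell markers gave 0 calls of 14 in limma, 4 at an unadjusted p under 0.05, and 2 higher calls without SHS male 4. The plasma cell list had a mean level of 11.23 to 11.56 in air males and 10.67 to 11.59 in SHS males, so the groups overlapped, with SHS male 4 lowest.

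Some inflammatory cytokines and acute-phase proteins that they induce rose. In the IL-1, IL-6 and TNF family, 7 of 26 were called higher and none lower (median 0.18), and in the acute-phase and antimicrobial list 9 of 23 and none (median 0.46). Leaving out SHS male 3 brought the first count to 4, and leaving out air male 1, air male 3 or SHS male 3 each brought the second to 6. Il6, the main inducer of the acute phase, read 6.12, 6.31, 5.54 and 5.84 after air and 7.56, 7.68, 7.70 and 7.58 after SHS. No air lung reached the lowest SHS lung. The rise was 3.19-fold (1.68 ± 0.26, adjusted p = 0.00137). Socs3, the feedback inhibitor of IL-6 signalling, rose by 0.76 ± 0.11 (adjusted p = 0.000623) and Il1b by 0.71 ± 0.14 (adjusted p = 0.00554).

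Serpina3n, a protease inhibitor of the acute phase, had one of the smallest adjusted p values of all genes. It read 9.30, 9.37, 9.02 and 9.71 in air males and 11.08, 11.01, 10.84 and 11.09 in SHS males. The lowest SHS lung was over 1 log2 unit above the highest air lung. The difference was 1.65 ± 0.12 (3.14-fold, adjusted p = 1.41e-06). Saa1, a serum amyloid A, read 4.56, 4.77, 4.73 and 4.78 against 6.04, 6.38, 6.12 and 6.34, a rise of 1.51 ± 0.14 (adjusted p = 4.02e-05). Its levels after air were near the bottom of the scale, and Saa1 lay below the level that the rule for the 30 largest genes required. Lcn2, which binds bacterial siderophores, rose by 0.87 ± 0.15 (adjusted p = 0.0029), Orm1 by 1.23 ± 0.23 (adjusted p = 0.00448) and complement factor Cfb by 0.73 ± 0.11 (adjusted p = 0.00101). Cfb was called among 16 complement genes, where the count was 1 with all arrays and 3 without SHS male 4.

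In the NF-kB feedback list, 5 of 15 were called higher, among them the subunits Nfkb2 at 0.36 and Relb at 0.50 and the regulator Bcl3 at 0.60, with a count of 3 without air male 3 or any of SHS males 1, 2 and 3. P-selectin, Selp, which slows leukocytes on the vessel wall, read 8.63, 8.75, 8.29 and 8.72 in air males and 9.70, 9.58, 9.63 and 9.56 in SHS males. The groups were well apart, and the rise was 2.03-fold (1.02 ± 0.10, adjusted p = 4.19e-05). Interferon-stimulated genes gave 1 call among 26, Mx1 at 0.40, a call lost in 5 of the 8 fits with an array left out, and 13 at an unadjusted p under 0.05. The median deviation of the interferon list from the air mean was 0.35 in SHS male 3 and -0.07 to 0.09 in the other SHS males, and without SHS male 3 the list had 0 higher calls and 1 lower. Genes of MHC class II gave 0 of 11 in limma and 0 at an unadjusted p under 0.05, with differences from -0.05 to 0.26.

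Among 17 type 2 cytokines and their receptors, 1 was called higher and 2 lower, with a median of 0.06. Without SHS male 4, 2 were called higher and 2 lower. Of the 17, 7 were dim, with both group means at or below the median of all probe-set means. Dim probe sets were called less often, so few calls here do not show that the cytokines were unchanged. Il33, an epithelial alarmin, read 11.002, 11.47, 11.39 and 11.62 in air males and 12.25, 12.27, 12.29 and 12.18 in SHS males. It was higher in every SHS lung, by 0.88 ± 0.13 (adjusted p = 0.00117). Tslp, another epithelial alarmin, read 7.49, 7.26, 7.91 and 7.55 against 6.96, 6.81, 6.84 and 6.93. Every SHS lung was lower for Tslp, with a difference of -0.67 ± 0.14 (adjusted p = 0.0112). Il13ra1, a signalling chain of the IL-13 receptor, fell by 0.38 (adjusted p = 0.0093). Il13ra2, the decoy receptor and a member of the list of IL-13 and IL-4 targets, rose by 1.16 ± 0.19 (adjusted p = 0.0024).

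Genes known to respond to IL-13 and IL-4 were more uniform. In the list of IL-13 and IL-4 targets, 19 of 32 were called higher and none lower (median 0.59), and 22 of 32 had every SHS lung above every air lung, where the share over all genes was 10.5%. The count was 9 without air male 1, 11 without air male 3, and 11, 12 and 10 without SHS males 1, 2 and 3. Arg1, the arginase of alternatively activated macrophages, read 9.99, 10.29, 9.78 and 10.24 in air males and 12.40, 12.36, 11.97 and 10.86 in SHS males. SHS male 4 was by far the lowest of its group. The fold was 3.54 (1.82 ± 0.51, adjusted p = 0.0466), and Arg1 passed in 1 of the 8 fits with an array left out, with an adjusted p of 0.128 without SHS male 1. Retnlb, a goblet cell protein, read 9.06, 9.61, 9.36 and 9.47 against 10.83, 10.91, 10.47 and 10.84 (1.39 ± 0.27, adjusted p = 0.00631). For Retnlb all SHS lungs were similar, SHS male 4 included.

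Goblet cell markers gave 5 calls higher of 13, with 1 call without air male 1, 2 without air male 3, 2 without SHS male 1, 3 without air male 4 or SHS male 2, 1 without SHS male 3 and 2 without SHS male 4. The mean level of the goblet cell list was 8.83 to 9.59 in the air males and 9.61 to 9.69 in the SHS males, so that the air lungs spread widely and air male 2 nearly met the SHS lungs. Slc26a4, the anion exchanger pendrin, rose by 0.98 ± 0.19 (adjusted p = 0.00645) and Agr2, which folds mucins, by 0.96 ± 0.22 (adjusted p = 0.0185). The airway mucin Muc5ac had 0.59 ± 0.15 (adjusted p = 0.0332), a call that held in 1 of the 8 fits with an array left out and had an adjusted p of 0.107 without air male 1. Clca1 and Retnla, classic IL-13 targets near the top of the scale in both groups, had differences of 0.17 (adjusted p = 0.269) and 0.15 (adjusted p = 0.186).

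Genes of cell division formed the most complete group. Of 39 measured genes of mitosis and chromosome segregation, 36 were called higher and none lower (median 0.79), and 37 had every SHS lung above every air lung, where 10.5% of all genes did. The count was 30 to 36 with each array left out. Of 34 genes of DNA replication and S phase, 22 were called higher and none lower (median 0.46), and all 34 had a positive difference. Birc5, the survivin of the chromosomal passenger complex, led the mitotic genes. It read 6.88, 7.16, 6.98 and 7.04 in air males and 8.61, 8.51, 8.57 and 8.10 in SHS males. The groups were apart, with SHS male 4 lowest of its group. The rise was 2.70-fold (1.43 ± 0.15, adjusted p = 9.45e-05).

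Top2a, the topoisomerase that untangles chromosomes, read 8.56, 8.83, 8.62 and 8.69 after air and 9.84, 9.86, 9.89 and 9.34 after SHS (1.05 ± 0.15, adjusted p = 0.000788). Mki67, the Ki-67 antigen of cycling cells, read 9.28, 9.72, 9.26 and 9.59 against 10.56, 10.59, 10.60 and 10.00 (0.97 ± 0.17, adjusted p = 0.00307). Again SHS male 4 lay between the air lungs and the other SHS lungs. Ube2c, the ubiquitin-conjugating enzyme of the anaphase-promoting complex, rose by 1.19 ± 0.19 (adjusted p = 0.00187) and the mitotic kinase Cdk1 by 0.99 ± 0.16 (adjusted p = 0.00222). Among replication genes, Rrm2, a ribonucleotide reductase subunit, rose by 1.33 ± 0.16 (adjusted p = 0.000189), the origin licensing factor Cdc6 by 1.10 ± 0.13 (adjusted p = 0.000224), Uhrf1, which guides maintenance DNA methylation, by 1.06 ± 0.12 (adjusted p = 0.000131), and the helicase subunit Mcm5 by 0.89 ± 0.11 (adjusted p = 0.000394). The median deviation of the mitosis list from the air mean was -0.11 to 0.11 in the air males, 0.82 to 0.91 in SHS males 1 to 3 and 0.52 in SHS male 4.

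Promoters of 4 mitotic genes called higher are printed to show 2 known elements. They were taken in order of difference from genes whose 150 bases held both elements, and genes without both were passed over. That all 4 hold both was therefore fixed by the choice and is not a result. The windows are 150 bases before the start from RefSeq on GRCm38.p6, each written in the direction of the gene, for Ube2c (chr2:164769779-164769928, plus strand), Top2a (chr11:99024190-99024339, minus strand), Cdk1 (chr10:69352913-69353062, minus strand) and Mki67 (chr7:135716380-135716529, minus strand). Capitals mark 2 motifs on either strand, the cell cycle genes homology region or CHR (TTTGAA or TTCGAA), which MuvB binds, and the CCAAT box (CCAAT), which NF-Y binds.
Ube2c: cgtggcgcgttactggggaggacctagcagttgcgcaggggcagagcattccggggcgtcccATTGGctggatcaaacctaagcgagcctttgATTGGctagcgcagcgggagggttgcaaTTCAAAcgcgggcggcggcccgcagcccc
Top2a: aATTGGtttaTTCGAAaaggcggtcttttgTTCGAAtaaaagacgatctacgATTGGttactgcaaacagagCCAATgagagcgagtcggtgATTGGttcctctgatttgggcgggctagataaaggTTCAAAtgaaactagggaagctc
Cdk1: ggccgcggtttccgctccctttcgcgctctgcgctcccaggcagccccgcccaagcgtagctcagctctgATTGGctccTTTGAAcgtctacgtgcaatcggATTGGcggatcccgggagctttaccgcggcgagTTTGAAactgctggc
Mki67: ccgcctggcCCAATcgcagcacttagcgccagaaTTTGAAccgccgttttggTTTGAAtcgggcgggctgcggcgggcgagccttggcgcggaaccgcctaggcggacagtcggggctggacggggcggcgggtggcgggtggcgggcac
The window of Ube2c holds 1 CHR match and 2 CCAAT boxes, that of Top2a 3 and 4, that of Cdk1 2 and 2, and that of Mki67 2 and 1. Over the window of 250 bases before to 50 after the start, the CHR letters were present in 25 of the 31 mitotic genes called higher that had a window, against 17.5% of 14452 measured genes. Both motifs were present in 23 of the 31, against 8.25%. The CHR letters were not confined to the mitotic genes. Of 13 called IL-13 and IL-4 targets with a window, 6 held them, against 17.5%. The CCAAT box was in 10 of these 13 and in 24 of the 31 mitotic genes, against 42.0%. The motif of the factor STAT6, also searched, was in 2 of the 13 targets, against 6.94%. Other motifs and gene sets were counted too, and not every count is given. Among called replication genes, 7 of 17 with a window held an E2F motif (TTTCGCGC or TTTGGCGC, either strand), against 1.45%, and 3 of 17 the CHR letters. The share of all genes stands beside each count and no test was made.

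**Figure D3:**
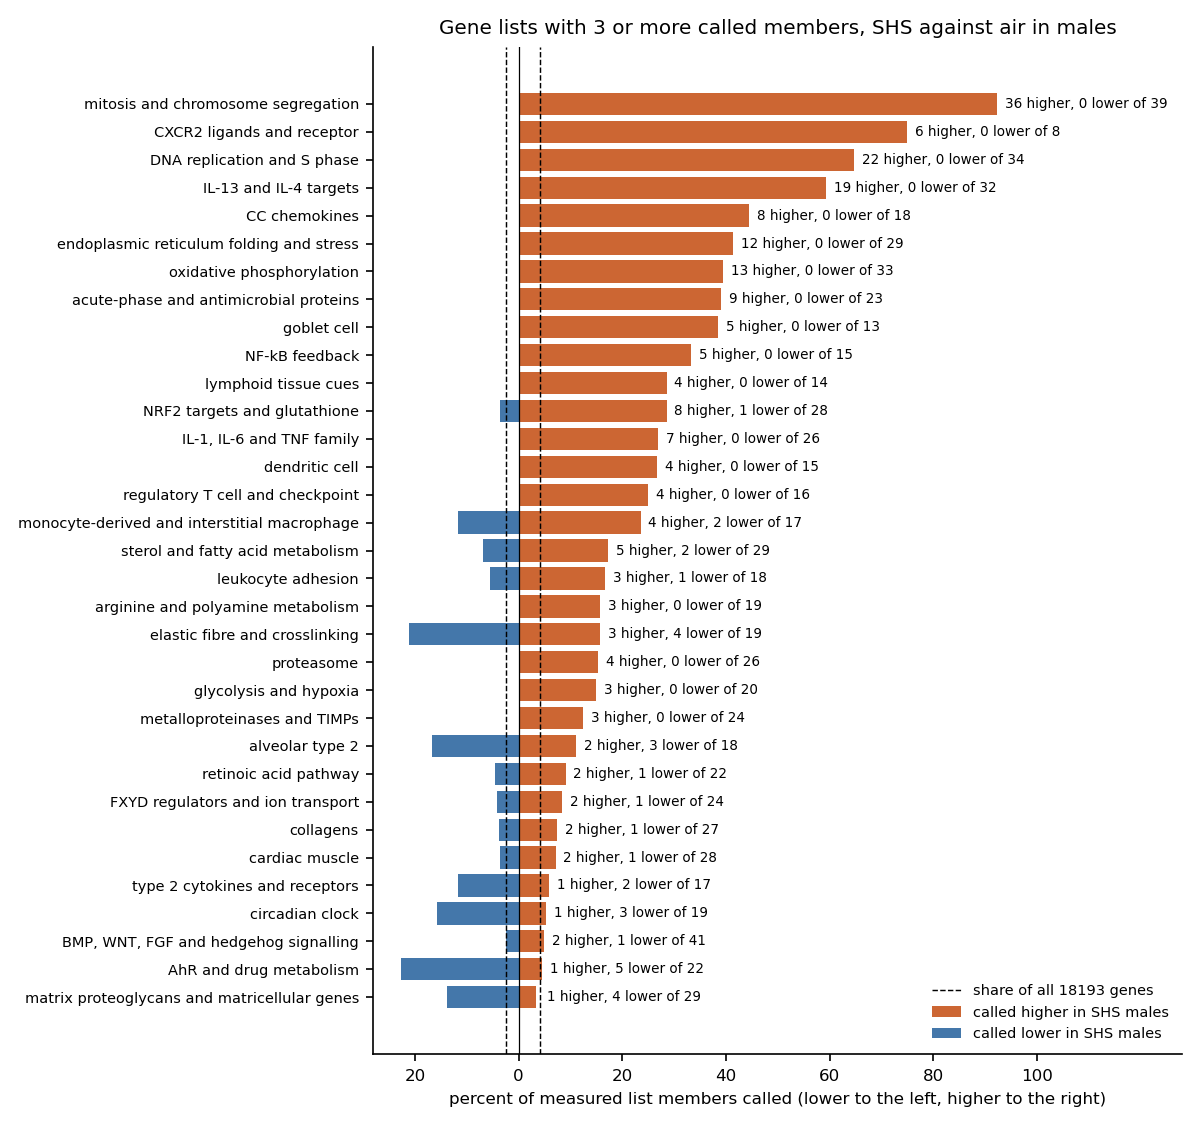
Bars give the percent of measured members called higher (orange, to the right) or lower (blue, to the left) in SHS males for each list with 3 or more calls, with the counts beside each bar. Dashed lines mark the shares of all 18193 genes, 4.17% higher and 2.47% lower, and the mitosis list at 36 of 39 has the longest bar.

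Aldh1a3, which makes retinoic acid from retinal, had the smallest adjusted p of the genes named, 8.68e-07. It read 5.78, 6.47, 5.91 and 6.24 in air males and 8.76, 8.65, 8.42 and 8.31 in SHS males. The groups were almost 2 log2 units apart at their nearest lungs, and the fold was 5.40. Other probe sets of Aldh1a3 had smaller differences, of 0.44 (adjusted p = 0.00419) and 0.18 (adjusted p = 0.276). The rest of the retinoic acid list did not move with it. Of 22 measured members, Rbp4, the retinol carrier, was the other call higher (0.84 ± 0.17, adjusted p = 0.00795) and Adh7, an alcohol dehydrogenase that acts on retinol, was called lower (-0.26 ± 0.07, adjusted p = 0.0436) in the full fit and in none of the 8 fits with an array left out, and the list's median was 0.03. The receptor Rarb, itself a retinoic acid target, had a difference of -0.07 (adjusted p = 0.827). The metalloproteinase inhibitor Timp1 read 8.12, 8.71, 8.13 and 8.62 against 10.93, 10.87, 10.76 and 10.74. All SHS lungs were far above the air lungs, by 2.43 ± 0.23 (5.38-fold, adjusted p = 4.19e-05). The proteinases it inhibits had smaller differences, with Mmp12 at -0.24 (adjusted p = 0.755) and Mmp9 at 0.16 (adjusted p = 0.371), and Adam12 and Adamts4 the other calls among the 24 measured, at 0.35 and 0.51, of which Adam12 held in 2 of the 8 fits with an array left out.

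Chaperones and enzymes of the endoplasmic reticulum rose modestly, 12 of 29 measured and none lower (median 0.26), with 8 without SHS male 3. Calr, a calcium-binding chaperone, read 12.66, 12.67, 12.64 and 12.68 in air males and 13.12, 13.16, 13.23 and 13.30 in SHS males. Both groups were narrow and did not overlap, and the rise was 1.45-fold (0.54 ± 0.07, adjusted p = 0.000327). Sdf2l1, a cofactor of the chaperone BiP, rose by 0.83 ± 0.14 (adjusted p = 0.00296). Genes of oxidative phosphorylation rose by less, 13 of 33 and none lower (median 0.21). This count was 3 without air male 3 or SHS male 3, 4 without SHS male 1, 5 without air male 1 and 6 without air male 4 or SHS male 2. Atp5g1, a subunit of the ATP synthase ring, read 10.35, 10.56, 10.44 and 10.47 against 11.10, 11.06, 11.12 and 10.95 (0.60 ± 0.08, adjusted p = 0.000504) and passed with every array left out.

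Markers of heart muscle, which is rich in mitochondria and surrounds pulmonary veins of the mouse, moved beside the oxidative phosphorylation genes. Of 28 cardiac muscle genes 27 had a positive difference, with a median of 0.51, although 2 were called higher and 1 lower, and the higher calls were 0 or 1 in 7 of the 8 fits with an array left out. The mean level of the cardiac list was 7.43 to 8.22 in the air males and 8.12 to 8.46 in the SHS males. Myh6, the atrial myosin, had a difference of 0.86 (adjusted p = 0.2) and Tnni3, the cardiac troponin I, 0.80 (adjusted p = 0.136). The part of these cells in the rise of mitochondrial genes was not tested. The exception was Myh7, the slow cardiac myosin, which read 10.85, 10.62, 10.76 and 10.49 after air and 9.86, 9.86, 9.67 and 9.57 after SHS. It was lower in every SHS lung, by 1.92-fold (-0.94 ± 0.10, adjusted p = 9.99e-05). Myom2, a muscle sarcomere gene among the 30 largest rises (1.24 ± 0.34, adjusted p = 0.0418), passed in 1 of the 8 fits with an array left out.

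Antioxidant genes driven by NRF2 were called higher in 8 of 28 and lower in 1 (median 0.12), with 5 without air male 1, SHS male 2 or SHS male 3 and 4 without air male 3 or SHS male 1. Gpx2, an epithelial glutathione peroxidase, read 8.86, 9.05, 8.95 and 8.73 in air males and 9.72, 9.68, 10.00 and 9.72 in SHS males. The groups did not overlap, and the rise was 1.84-fold (0.88 ± 0.09, adjusted p = 6.93e-05). Hmox1, heme oxygenase 1, read 8.55, 8.33, 8.14 and 8.49 against 9.73, 9.73, 8.61 and 8.83. SHS males 1 and 2 were over 0.8 above the other SHS lungs, and the call for Hmox1 (0.85 ± 0.22, adjusted p = 0.033) held in 2 of the 8 fits with an array left out. Nqo1, a standard NRF2 target, had a difference of -0.01 (adjusted p = 0.958), and catalase, Cat, fell by 0.39 (adjusted p = 0.0238), which held in 2 of the 8 fits.

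Genes of smoke and drug metabolism were lower where they changed, with 1 exception. In the AhR and drug metabolism list, 5 of 22 were called lower and 1 higher (median -0.15). Without air male 3, SHS male 1 or SHS male 2 the count of lower calls was 2, and without air male 1, air male 4 or SHS male 3 it was 3. The median deviation of the list from the air mean was -0.20 to -0.24 in SHS males 1 to 3 and 0.01 in SHS male 4. Pon1, a lactonase carried on lipoproteins, read 9.25, 8.78, 9.57 and 9.15 in air males and 7.83, 7.70, 8.30 and 8.64 in SHS males, 2.10-fold lower (-1.07 ± 0.24, adjusted p = 0.0149). The nearest lungs almost met, and Pon1 passed in 5 of the 8 fits with an array left out. The carboxylesterase Ces1d fell by 0.56 (adjusted p = 0.00482) and the microsomal epoxide hydrolase Ephx1 by 0.46 (adjusted p = 0.00989). Ces2b, another carboxylesterase and 1 of the 30 largest falls, fell by 0.79 (adjusted p = 0.000709). The exception was Cyp1b1, a P450 induced through the aryl hydrocarbon receptor, which rose by 0.66 ± 0.12 (adjusted p = 0.00498), a call lost with the mean of all its probe sets (adjusted p = 0.0661). Cyp1a1, the usual reporter of that receptor, had means of 8.41 in air males and 8.53 in SHS males, with overlapping lungs (0.12, adjusted p = 0.801).

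Macrophage genes split. Cd163, the haemoglobin scavenger receptor of tissue macrophages, read 7.64, 7.76, 7.60 and 7.96 in air males and 9.06, 9.06, 9.07 and 9.41 in SHS males. It was higher in each SHS lung, by 1.41 ± 0.18 (2.65-fold, adjusted p = 0.000392). Folr2, which marks resident interstitial macrophages, rose by 0.69 ± 0.09 (adjusted p = 0.000437), and Mrc1, the mannose receptor, by 0.66 ± 0.12 (adjusted p = 0.004). The opposite was seen for Gpnmb, a membrane glycoprotein of foamy macrophages, with 10.70, 10.81, 10.99 and 10.40 after air and 9.46, 9.42, 9.20 and 8.36 after SHS. No SHS lung reached the lowest air lung, and the fall was 3.06-fold (-1.61 ± 0.36, adjusted p = 0.0136). Apoe, the apolipoprotein that macrophages secrete, fell by 0.64 (adjusted p = 0.00287), and the cholesterol exporters Abca1 and Abcg1 by 0.57 (adjusted p = 0.00872) and 0.39 (adjusted p = 0.0055), although the call of Abca1 was lost with the mean of all its probe sets (adjusted p = 0.265). Mpeg1, a pore-forming protein of macrophages, read 12.27, 12.12, 12.11 and 12.08 against 11.52, 11.49, 11.63 and 11.48. The 2 groups were tight and separate for Mpeg1 (-0.61 ± 0.07, adjusted p = 0.000255). Lyz2, lysozyme of macrophages and type 2 alveolar cells, fell by 0.49 (adjusted p = 0.000733). Counts over the lists were 4 higher and 2 lower of 17 for monocyte-derived and interstitial macrophages and 1 higher of 17 for alveolar macrophages.

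The lower genes were led by Bex1, a small adaptor of nerve and progenitor cells (chromosome X, 136213972 to 136215513). It read 9.82, 9.94, 10.35 and 9.99 in air males and 8.62, 8.70, 7.99 and 7.35 in SHS males. The groups were over 1 log2 unit apart, and the fold was 3.64 (-1.86 ± 0.28, adjusted p = 0.00117). Itgbl1, an integrin beta-like secreted protein, read 7.48, 7.14, 7.44 and 7.10 against 6.13, 5.86, 5.94 and 5.96 (-1.32 ± 0.13, 2.49-fold, adjusted p = 4.82e-05). Aspn, a small leucine-rich proteoglycan, fell by 0.80 (adjusted p = 0.00709). Eln, elastin itself, read 9.51, 9.31, 9.28 and 9.16 against 8.91, 8.83, 8.39 and 8.50. All SHS lungs were lower for Eln (-0.65 ± 0.15, adjusted p = 0.0162), and it passed in 6 of the 8 fits with an array left out and not with the mean of all its probe sets (adjusted p = 0.0529). Fbln5, which assembles elastic fibres, fell by 0.43 (adjusted p = 0.000676) and kept its call with every array left out.

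Over the whole elastic fibre and crosslinking list, 4 of 19 were called lower and 3 higher, among the latter Emilin1, a glycoprotein of elastic fibres (0.63 ± 0.08, adjusted p = 0.000437). Left out in turn, air male 1 or SHS male 3 gave 2 lower calls, and the 3 higher calls became 1 or 2 in each of the 8 fits. The matrix list was as mixed, with 4 of 29 lower and 1 higher, the proteoglycan Vcan (0.88 ± 0.15, adjusted p = 0.00221), and with 3 higher without air male 2 or SHS male 4. Among 27 collagens, Col6a2 (0.77 ± 0.10, adjusted p = 0.0005) and Col6a1 rose and Col4a5 fell. Col6a1 passed in 6 of the 8 fits with an array left out, so that 1 collagen was higher without air male 3 or SHS male 1. Other falls with tight groups were Vldlr, a lipoprotein and reelin receptor, which read 10.27, 10.21, 10.43 and 10.32 against 9.52, 9.51, 9.44 and 9.62 (adjusted p = 0.000904), and Nrn1, a neuritin, which read 9.26, 9.15, 9.16 and 9.19 against 8.42, 8.42, 8.48 and 8.56 (adjusted p = 4.34e-05). For both genes the spread within a group was under 0.3 and the groups lay over 0.5 apart. Of the 5 other probe sets of Vldlr, all differed in the same direction, by 0.51 to 0.61 in size.

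Among the 30 named falls, 29 had every SHS lung below every air lung, where 8.53% of all genes did, and the exception was Fam107a. The folds ran from 1.53 to 3.64. Among the 30 named rises none had overlapping groups, and the folds ran from 2.23 to 8.64. These members were chosen by this contrast, so the counts describe them only. Of 36 further probe sets for 18 of the 60 genes, 32 differed in the same direction and 18 were called so, with none called in the opposite direction. Chl1, a neural adhesion molecule that rose 3.91-fold, had further probe sets at -0.23 (adjusted p = 0.257), 0.29 (adjusted p = 0.216) and -0.03 (adjusted p = 0.871), all dimmer than the probe set named. In fits that each left out 1 of the 8 male arrays, 44 of the 60 were called every time.

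**Figure D4:**
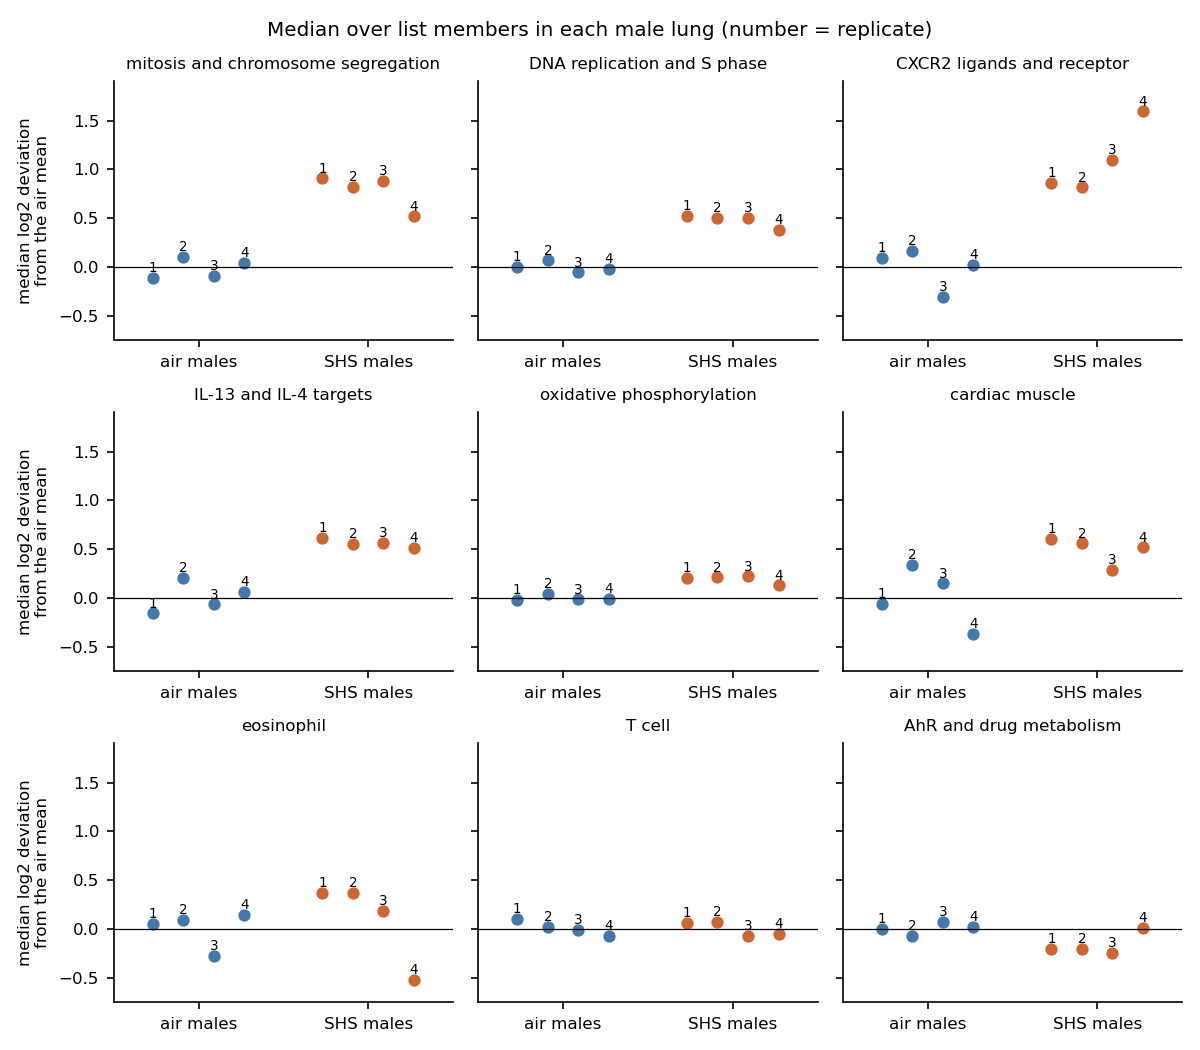
Median log2 deviation from the mean of the air males over the members of 9 gene lists, with 1 point per male lung and the replicate number above it. The SHS lungs lie above the air lungs for mitosis, replication, CXCR2 ligands and IL-13 targets, overlap with them for T cells, and split for eosinophils, where SHS male 4 is at -0.52.

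Markers of alveolar type 2 cells gave 5 calls of 18 measured, of which Il33 and Chia1 (0.48), an acidic chitinase, were higher and Lyz2, the transcription factor Etv5 (-0.41) and the surfactant lipid transporter Abca3 (-0.23) lower. The 3 lower calls were 1 or 2 in each fit with an array left out, and 10 of the 18 had an unadjusted p under 0.05. Lyz2 passed in 8 of those 8 fits, Etv5 in 6 and Abca3 in 0. Etv5 was also not called with the mean of all its probe sets (adjusted p = 0.105). In limma, markers of T cells (14 measured), NK and cytotoxic cells (14), smooth muscle (16), type 1 alveolar cells (14), mesothelium (11) and fat (13) gave 0. At an unadjusted p under 0.05 these lists had 0, 2, 6, 2, 4 and 2, where 9096 of all 45037 probe sets passed. Without SHS male 1 the NK list had 1 higher call, and without air male 3 mesothelium had 1 lower. Regulatory T cell and checkpoint genes gave 4 of 16 higher, with 2 without SHS male 1. Il10, the suppressive cytokine, read 4.53, 4.15, 4.15 and 4.33 in air males and 5.09, 4.88, 5.23 and 4.64 in SHS males (0.67 ± 0.13, adjusted p = 0.00674). Ctla4, the checkpoint receptor, read 6.70, 6.63, 6.26 and 6.49 against 7.02, 7.14, 7.51 and 7.03 (0.65 ± 0.13, adjusted p = 0.00666). For both genes the groups were adjacent without overlapping, and Il10 was dim in all lungs. Dendritic cell genes gave 4 of 15 higher, with 2 without air male 3, air male 4 or SHS male 1 and 1 without air male 1 or SHS male 3. Among 8 eosinophil markers, Rnase2a, an eosinophil-associated ribonuclease, was the single call (1.20 ± 0.20, adjusted p = 0.00265). The granule protein Prg2 read 7.79, 7.91, 7.47 and 7.91 in air males and 8.39, 8.46, 7.91 and 6.92 in SHS males, so SHS male 4 fell below every air lung while SHS males 1 and 2 lay above them all. Club cell genes gave 1 call, Scgb3a2, which fell by 0.65 (adjusted p = 0.0251) and passed in 2 of the 8 fits with an array left out, while the list had 2 lower calls without SHS male 4.

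The smoke contrast was set beside the same contrast in females, whose arrays share none of the lungs used here. Litters are not given, so males and females of the same exposure may be siblings, and both contrasts use the same estimate of spread. Agreement between the sexes is therefore not an independent replication. Male and female lungs were not compared directly. Of the 1207 genes called in males, 1123 (93.0%) had the same sign in females. The share of all 18193 genes with the same sign was not counted. Both contrasts called 406, which is 33.6% of the male calls and 56.2% of the 722 female calls, and 0 genes were called in opposite directions. Of all 18193 genes, 6.63% were called in males and 722 in females. The difference between the male and the female effect, tested in limma as an interaction, gave 0 calls of 45037 probe sets (0.00%), with 3709 at an unadjusted p under 0.05, and 0 under each alternative that was fitted. A call in males without one in females therefore does not show a difference between the sexes.

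The male difference was the larger one for Aldh1a3, at 2.43 ± 0.16 against 1.34 ± 0.16 in females (interaction adjusted p = 0.337), and for Bex1, at -1.86 ± 0.28 against -0.28 ± 0.28 (interaction adjusted p = 0.378). Reg3g, an antimicrobial lectin, had 1.76 ± 0.44 against 0.21 ± 0.44 (interaction adjusted p = 0.548). Its air males were spread, from 8.67 to 10.80, and its SHS males narrow, from 11.21 to 11.37. Vldlr had -0.78 ± 0.12 in males and -0.06 ± 0.12 in females (interaction adjusted p = 0.381). The female difference was the larger for Cxcl3, at 3.42 ± 0.32 against 2.50 ± 0.32 (interaction adjusted p = 0.617). The smallest interaction p was that of Znrd1as, a noncoding transcript, with -0.39 in males and 0.16 in females (adjusted p = 0.141). Of the 39 mitosis genes, 36 were called higher in males and 37 in females. Oxidative phosphorylation gave 13 higher in males and 4 in females, with medians of 0.21 and 0.17, and the cardiac list, with a median of 0.51 in males, had a median of -0.01 in females.

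**Figure D5:**
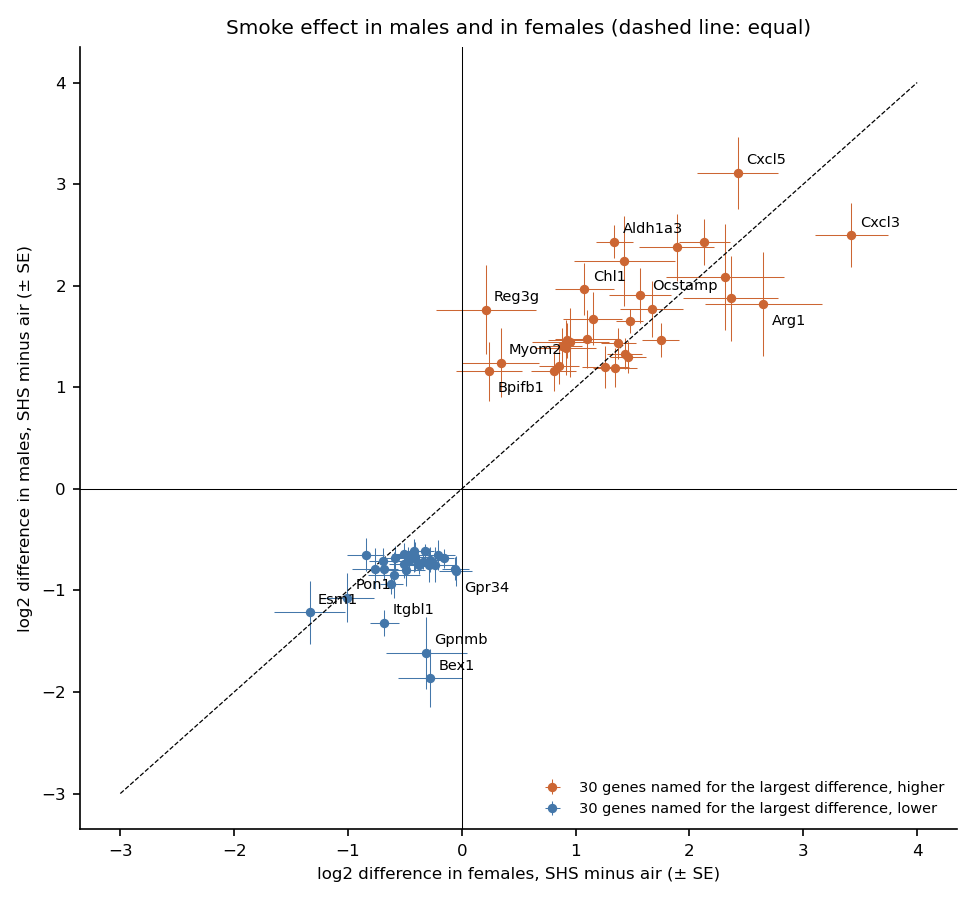
Log2 difference between SHS and air in males (y axis) against that in females (x axis) for the 60 genes named for the largest male differences, with SE bars from the model. All 60 share their sign between the sexes, the dashed line marks equal differences, and genes such as Reg3g and Bex1 lie near 0 on the female axis, although no interaction passed the test.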

How the data were processed

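Total RNA of left lungs was hybridized to Affymetrix arrays of the whole mouse genome, per the labels. The authors deposited 1 normalized log2 value per probe set and array, from 2.58 to 15.2. Summarisation and normalization are not given in the sources used here. Limma is the tool that the submitters' processing notes name. The values were used as deposited, after leaving out 64 control probe sets.

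Means of the 4 groups were fitted to all 16 arrays with limma 3.58.1 in R 4.3.3 (12 residual and 5.56 prior degrees of freedom), with two-sided moderated tests and Benjamini-Hochberg adjustment over 45037 probe sets. Calls needed an adjusted p under 0.05. No set test was run, and lists are described by counts and medians. Gene lists, including cell type markers, and the members described were chosen with earlier results of these data known. Named were the 30 called genes with the largest difference in each direction whose higher group mean exceeded 7.02, the median of probe-set means, up to 6 called members of each list, key members of lists and the smallest interaction p values. Genes outside this rule, such as Fabp7, were named with their values seen. Promoter windows and positions are RefSeq's on GRCm38.p6. The steps were tested on simulated data, and figures were drawn with matplotlib 3.10.9. The number of arrays limits the precision. In the fit to all 16 arrays, p-values rest on the spread between animals within the 4 groups, females included. They treat each lung as independent, although smoke was given in utero and litters are not given in the sources used here. Lungs of the same group, and males and females of the same exposure, may share a litter. In that case the adjusted p values, the counts of calls and the agreement between the sexes could overstate the evidence. This was not tested. Alternatives were other normalizations, filters, priors, weights, replicate blocks, gene summaries, thresholds and sets of arrays. The fit without SHS female 4 was added after seeing the data.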

Additional observations from a re-analysis of the deposited data

Results flagged for a closer look

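Of 120 groups of 4 arrays checked, those of the 60 genes with the largest differences in air and in SHS males, 6 held a lung set far from the other 3 (a gap over 0.829 of the group's range). Chance alone gives about 1 in 20, the same share as found here. SHS male 4 was the lung in 5 of the 6. Its Cd163 was 9.41 against 9.06 to 9.07 in the other SHS males, its Cd209e, a C-type lectin, 9.73 against 9.08 to 9.12, and its Gpr155 9.96 against 9.75 to 9.79. It was low for Rrm2, at 9.63 against 10.17 to 10.25, and for Rnase2a, at 13.04 against 13.25 to 13.28. In the sixth group, air male 3 had Ces2b at 7.52 against 7.39 to 7.41. For each of these 6 genes the lung set apart still lay on its own group's side of every lung of the other group. The genes were chosen by this contrast, so that separation only describes them.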

How the results depend on the processing

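No called gene named by the rule changed direction, and higher calls outnumbered lower ones in every fit. The medians of 18 of 66 gene lists changed sign under at least 1 alternative, each at most 0.18 in size as reported. Interferon-stimulated genes had 0.06, and -0.02 without SHS male 3. Against 2332 called probe sets (1382 higher, 950 lower), array weights gave 4398 (2362 and 2036), an adjusted p under 0.10 gave 4073 (2285 and 1788), a 1.5-fold minimum 463 (356 and 107), the 8 male arrays alone with the replicate number as a block 1421 (831 and 590), and the fit on gene means, with fewer features tested, 1410 genes (904 and 506). Leaving out each male array in turn gave 1073 to 2105 (698 to 1301 higher, 375 to 812 lower). With the replicate block in all 16 arrays the count was 2439 (1409 and 1030). The replicate numbers were not taken to pair the lungs, since the labels do not say that they mark a litter or day. Deviations of same-numbered air and SHS males correlated at 0.02 to 0.12. Those of differently numbered males correlated at -0.17 to 0.12. Quantile normalization, centring, a filter on dim probe sets, another prior, the male arrays alone and leaving out SHS female 4 gave 2330 to 3153, and higher calls made up 59.3%, or 56.7% after quantile normalization and 55.7% after centring. The interaction gave 0 calls in each fit that held both sexes and with an adjusted p under 0.10. Of 201 called genes named by the rule, 125 passed with each male array left out. Causes were not tested. With 4 lungs a group, a difference short of the threshold is not shown to be absent.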

Other observations

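Circadian clock genes gave 3 lower and 1 higher of 19, with 0 lower without air male 3, 1 without SHS male 1 or SHS male 3, and 0 higher without either air male 3 or 4 or any of SHS males 1 to 3. Per3, a repressor of the clock, read 9.29, 9.07, 9.72 and 9.41 in air males and 8.70, 8.60, 8.87 and 9.04 in SHS males, lower in every SHS lung (-0.57 ± 0.14, adjusted p = 0.0269 in limma). Nfil3, which opposes the activators of the clock's output, read 7.57, 7.47, 7.20 and 7.34 against 8.05, 8.06, 8.02 and 7.91 (0.61 ± 0.16, adjusted p = 0.0311). Per3 passed in 2 and Nfil3 in 3 of the 8 fits that left out an array. The hours at which lungs were taken are not given in the sources used here.

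Fabp7, a fatty acid binding protein of glia, lay outside the naming rule because of its dim values and is named here after they were seen. Its mean was 6.52 in air males and 5.10 in SHS males (adjusted p = 0.000553 in limma), and its difference in females was -0.28 (adjusted p = 0.52).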
